A study of Homo sapiens with 4 samples.

Results

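The S100 family comprises small calcium-binding proteins, most of whose genes lie side by side on chromosome 1 within the epidermal differentiation complex. The genes described here were chosen by name: S100A2, S100A4, S100A6, S100A7, S100A8, S100A9, S100A10, S100A11, S100A14 and S100P, which are 10 of the 26475 gene symbols in the count tables and were all measured above the minimum of 10 counts that 15204 genes reached in at least 1 library. MDA-MB-468, an established line of basal-like triple-negative breast cancer (TNBC), was grown as mammospheres, and RNA was sequenced from these. The cells of all 4 conditions carried Cas9 and a doxycycline-inducible guide, both delivered by lentivirus, and had been sorted as pools for the fluorescent markers of the vectors. CTL cells carried a control guide and received no doxycycline. CTL+dox cells carried the same guide and received the drug. gRNA2 cells carried the second guide against TCOF1, the gene of the nucleolar protein treacle, without the drug, and gRNA2+dox cells received the drug and were labelled as the TCOF1 knockout. The labels gave the genotype of the other 3 conditions as wild type. Each condition was 1 library of mammospheres pooled from several plates, so every difference below is between libraries, and variation between cultures could not be measured.

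S100 proteins usually act as dimers that change shape on binding calcium and then hold a partner protein. Inside cells S100A10 and S100A11 bind annexins at membranes, S100A4 binds non-muscle myosin, S100A6 binds the calcyclin-binding protein and S100P binds ezrin. S100A7 (psoriasin), S100A8 and S100A9 are released by stressed squamous epithelium, where S100A8 and S100A9 pair as calprotectin, and released S100 proteins can be sensed by the receptors AGER and TLR4. In breast cancer, high levels of several of these genes are known from basal-like tumours, and neutrophils and monocytes are a further source of S100A8, S100A9 and S100A12.

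Of the 10 genes, 9 lie on chromosome 1 between positions 151982915 and 153616325 of GRCh38, a stretch of 1.63 Mb, and S100P lies on chromosome 4. S100A2, S100A8 and S100A9 carried the clearest patterns or the closest pairing among them, so the 250 bases before a start site of each are shown. They are given by RefSeq on GRCh38.p14 and written in the direction of transcription. RefSeq gave further start sites for S100A2 and S100A8, whose windows are not shown. The window of S100A2 is chr1:153565845-153566094 on the minus strand, that of S100A8 is chr1:153391074-153391323 on the minus strand and that of S100A9 is chr1:153357604-153357853 on the plus strand. Capitals mark the AP-1 motif TGACTCA in S100A2 and the TATA box TATAAA in the other two.

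S100A2: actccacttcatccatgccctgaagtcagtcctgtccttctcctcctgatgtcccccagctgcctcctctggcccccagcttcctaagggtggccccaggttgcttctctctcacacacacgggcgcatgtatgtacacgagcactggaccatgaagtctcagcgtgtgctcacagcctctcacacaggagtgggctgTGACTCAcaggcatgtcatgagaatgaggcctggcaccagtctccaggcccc
S100A8: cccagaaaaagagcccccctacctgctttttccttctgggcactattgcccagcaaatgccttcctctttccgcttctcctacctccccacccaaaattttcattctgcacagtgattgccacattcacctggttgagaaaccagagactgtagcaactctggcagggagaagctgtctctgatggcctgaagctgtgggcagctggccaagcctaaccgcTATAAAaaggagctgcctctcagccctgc
S100A9: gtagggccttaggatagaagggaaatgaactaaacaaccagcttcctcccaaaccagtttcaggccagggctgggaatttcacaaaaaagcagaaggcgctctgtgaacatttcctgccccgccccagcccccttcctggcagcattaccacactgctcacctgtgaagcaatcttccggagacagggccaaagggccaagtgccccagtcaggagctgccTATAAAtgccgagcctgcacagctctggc

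In the windows shown, the AP-1 match of S100A2 lay 52 to 46 bases before the start, and the TATA boxes of S100A8 and S100A9 both lay 29 to 24 bases before it. The other window of S100A2 held no AP-1 match. In another window of S100A8 the same TATA box lay 126 to 121 bases before the start, and its remaining window held none. Both strands of the 13 windows that RefSeq gave for the 10 genes were searched. TATAAA occurred in 6 of the 13 windows, against 10.7% of all 35116 windows of this length. These windows belonged to 5 of the 10 genes, namely S100A4, S100A7, S100A8, S100A9 and S100P, with the same box of S100A8 counted in overlapping windows. TGACTCA occurred in 1 of the 13 windows, in S100A2, against 4.20% of windows. The C/EBP motif TTGCNNAA occurred in 1 of the 13, in S100A11, against 9.05%, and the STAT motif TTCNNNGAA in 0 of the 13, against 6.57%. None of these motifs overlapped another. A match is a description of the letters and not of a bound site.

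Every set of 4 values here and below is in the order CTL, CTL+dox, gRNA2, gRNA2+dox. The libraries held 19960644, 22467410, 26322847 and 22168624 counts on genes. Levels are CPM, counts scaled to the library size after TMM scaling, and the smallest level that the depth could show, 3 counts, was 0.115 to 0.147 CPM. TCOF1 itself had levels of 49.9, 33.5, 50.6 and 20.0 CPM. Markers of an epithelial basal line, among them KRT5, KRT14 and EGFR, summed to 13200 to 14300 CPM over 8 genes, while ESR1 and PGR had at most 13 and 7 reads in any library. ERBB2 was detected, with 270 to 387 reads, or 12.4 to 14.9 CPM. The 12 white blood cell markers summed to 63.3, 65.3, 68.2 and 69.3 CPM, nearly all of it from CSF1R and CD14. Of their defining genes, PTPRC had 1 or 2 reads in each library, ELANE and FCN1 had 0, which allows up to the level of 3 counts, and 3 to 5 of the 12 were at 0 in each library. S100A12, a calgranulin known from neutrophils, had 18, 26, 15 and 20 reads.

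The 10 genes together held between 0.909% of all gene counts, in gRNA2, and 1.03%, in CTL+dox. Per kilobase of transcript, S100A7 stood highest in all 4 libraries, at 4670, 5340, 5240 and 5970 CPM per kilobase. S100A11 followed at 4530 to 4910, and its range overlapped that of S100A7. S100A9 came next at 3530 to 4280, below both in every library. These 3 secreted or annexin-binding proteins were among the 28 genes with the highest CPM of each library. S100A8 ranged from 1050 to 1820 CPM per kilobase, S100A6 from 881 to 1250, S100P from 879 to 1110 and S100A10 from 743 to 886, and each of these ranges overlapped that of its neighbour in the order. S100A4, at 232 to 323, and S100A14, at 249 to 279, changed places in gRNA2. S100A2 was the lowest in every library, at 46.1, 60.9, 23.7 and 17.2 CPM per kilobase, with no overlap with any of the others.

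A gene was called higher or lower where its level differed at least 1.5-fold between libraries and the exact 95% Clopper-Pearson interval of the log2 ratio, which covers counting error only, left out 0. Between gRNA2+dox and gRNA2, the same pool with and without the drug, 1 of the 10 genes was called higher (S100A8) and 0 lower, against 1.70% of all 15204 genes called higher and 2.39% called lower. Between gRNA2+dox and CTL+dox, both with the drug, 0 were called higher and 1 lower (S100A2), against 2.59% and 4.18%. Between CTL+dox and CTL, which shows the drug with a control guide, 1 was called higher (S100A8) and 0 lower, against 1.45% and 1.68%. Between gRNA2 and CTL, the 2 pools without the drug, 0 were called higher and 1 lower (S100A2), against 1.55% and 2.52%. Under cutoffs like those of the study, a log2 ratio beyond 1 and a bound beyond 0.5, S100A2 in gRNA2+dox against CTL+dox was the sole call among the 40 ratios of the 10 genes. The share of all genes past these cutoffs in either direction was 0.599% in gRNA2+dox against gRNA2, 1.51% in gRNA2+dox against CTL+dox, 0.257% in CTL+dox against CTL and 0.566% in gRNA2 against CTL. With 1 call among 10 genes in each comparison, the counts describe single genes and not the family. The comparisons share libraries, so they are not independent of each other.

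S100A2 is a nuclear S100 protein of basal epithelium that binds p53, and it was the gene with the largest spread between libraries, 3.54-fold from lowest to highest. It lies at chr1:153561108-153565844 on the minus strand, with 3 exons in the canonical transcript. Its reads were 920, 1340, 604 and 367, or 45.1, 59.5, 23.2 and 16.8 CPM. Both libraries with the TCOF1 guide were below both with the control guide, and the lower level was already seen in the library without the drug. The log2 ratio was -0.96 (-1.11 to -0.81) in gRNA2 against CTL and -1.82 (-1.99 to -1.66) in gRNA2+dox against CTL+dox. With the drug, S100A2 was higher in the control pool, by a log2 ratio of 0.40 (0.28 to 0.52), and lower in the gRNA2 pool, by -0.46 (-0.66 to -0.28). Neither of these reached 1.5-fold. The log2 ratio with the drug in the gRNA2 pool minus that in the control pool was -0.87 (counting standard error 0.11, interval -1.09 to -0.64). Among the 7527 genes with at least 500 counts in a library, 0.691% had a difference of -0.5 or lower, and the median was -0.015. Of the same genes, 51 were called lower in gRNA2+dox against CTL+dox and 21 in gRNA2 against CTL, and 4, S100A2 among them, had a ratio to CTL+dox as low as that of S100A2. In such bulk samples, fewer cells that express a gene and less of its RNA per cell cannot be told apart, and neither can the guide and the cell pool, since each guide was in 1 pool.

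S100A2 was the gene with the widest spread, and the 5 genes whose profile over the 4 libraries was nearest to it were found among 10532 genes with at least 100 counts in each library. The measure was the Euclidean distance of log2 CPM centred over the 4 libraries. LGALS1, which encodes galectin-1, a lectin that binds beta-galactosides, was nearest, at a distance of 0.20, with 686, 1059, 396 and 281 reads. The others were CLDN10 (a claudin of tight junctions, 0.36), ANTXR2 (an anthrax toxin receptor, 0.44), GJB2 (connexin 26, 0.45) and LDHB (a lactate dehydrogenase subunit, 0.46). All 5 had a lower CPM in both gRNA2 libraries than in both control libraries, which follows from choosing the nearest profiles. A profile of 4 libraries is a short one, and the distances are descriptions.

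S100A8, the smaller partner of calprotectin, was called higher with doxycycline whichever guide the cells carried. Its gene spans chr1:153390032-153422583 on the minus strand in RefSeq, and its canonical transcript has 408 bases. It had 9703, 16731, 11138 and 14210 reads, or 475, 743, 428 and 651 CPM. Both libraries with the drug were above both without it. The log2 ratio was 0.65 (0.61 to 0.68) in CTL+dox against CTL and 0.61 (0.57 to 0.64) in gRNA2+dox against gRNA2, that is 1.56-fold and 1.52-fold. The 2 ratios differed by -0.039 (-0.090 to 0.012), an interval of counting error that holds 0. Between the guides S100A8 was lower with the TCOF1 guide, by a log2 ratio of -0.19 (-0.22 to -0.16) with the drug and -0.15 (-0.19 to -0.11) without it, both short of 1.5-fold. Of the 7527 genes with at least 500 counts, 2 were called higher in CTL+dox against CTL (S100A8 and FAM25A, the latter named after its values were seen) and 26 in gRNA2+dox against gRNA2, and S100A8 was the 1 called in both.

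Short transcripts as a class also had a median ratio above 0 with the drug, small in the gRNA2 pool. The 142 genes with a canonical transcript under 700 bases and at least 500 counts, 8 of the 10 S100 genes among them, had a median log2 ratio of 0.174 in CTL+dox against CTL and 0.046 in gRNA2+dox against gRNA2. For transcripts of 4000 bases or more the medians were -0.023 and -0.022. S100A8 ranked first of the 142 in gRNA2+dox against gRNA2 and 2nd in CTL+dox against CTL. With each gene centred on genes of like length, an alternative chosen after the data were seen, the log2 ratios of S100A8 were 0.56 and 0.47, below the 0.585 that 1.5-fold requires, so both calls were lost. The part of transcript length in the levels of S100A8 was not tested further. The same centring left S100A2 at -1.74 in gRNA2+dox against CTL+dox and -0.97 in gRNA2 against CTL. In these comparisons it took S100A8 to -0.075 and -0.15.

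The genes nearest in profile to S100A8 were TXNDC17 (a thioredoxin-like protein, distance 0.13, with 201, 314, 217 and 263 reads), PLGRKT (a plasminogen receptor, 0.16), MAGIX (0.21), RPA3 (the smallest subunit of replication protein A, 0.22) and MEST (0.25). All 5 had at most 381 reads in any library.

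S100A9, the other partner of calprotectin, was higher with the drug too, by less than 1.5-fold. It lies at chr1:153357854-153361023 on the plus strand and had 41321, 55234, 52898 and 52170 reads, or 2020, 2450, 2030 and 2390 CPM. Both libraries with the drug were again above both without it. The log2 ratio was 0.28 (0.26 to 0.30) in the control pool and 0.23 (0.22 to 0.25) in the gRNA2 pool, 1.21-fold and 1.18-fold. Centring by transcript length brought these to 0.103 and 0.188. Between the guides the uncentred log2 ratio was -0.038 (-0.055 to -0.020) with the drug, which that centring turned to 0.078. Without the drug it was 0.005 (-0.013 to 0.024), not distinguishable from 0 at this depth. The ratio of S100A9 with the drug also differed between its 2 strand counts, at 0.39 and 0.14 in the control pool and 0.32 and 0.14 in the gRNA2 pool.

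S100A7, or psoriasin, at chr1:153457744-153460651, had 40903, 51559, 58511 and 55966 reads, or 2000, 2290, 2250 and 2560 CPM. Its lowest level was in CTL and its highest in gRNA2+dox. The log2 ratio with the drug was 0.19 (0.17 to 0.21) in both pools, and the TCOF1 guide was above the control guide by 0.16 (0.15 to 0.18) with the drug and 0.17 (0.15 to 0.18) without it. The 2 ratios with the drug differed by -0.003 (-0.028 to 0.023). Centring by transcript length brought the ratio in the control pool to 0.019 and that in the gRNA2 pool to 0.144, and so their difference to 0.125. S100A7A, a near copy of S100A7 whose reads may be split from it only in part, had 1229, 1257, 1594 and 1666 reads. Its log2 ratio was 0.45 (0.34 to 0.56) in gRNA2+dox against CTL+dox and 0.32 (0.22 to 0.42) against gRNA2, but its values are uncertain for that reason.

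S100A6 is known as calcyclin, and S100A4 binds non-muscle myosin and is known from metastasis. Both had their lowest level in gRNA2, as did S100A8 and S100A10. S100A6, at chr1:153534599-153535991, had 9338, 12244, 9963 and 11465 reads, or 457, 544, 382 and 525 CPM. Its log2 ratio with the drug was 0.25 (0.21 to 0.29) in the control pool and 0.46 (0.42 to 0.50) in the gRNA2 pool. The difference of the 2 was 0.21 (counting standard error 0.028). Centring by transcript length brought the 2 ratios to 0.075 and 0.411, and their difference to 0.335. S100A4, at chr1:153543621-153545806, had 2904, 3737, 3105 and 3323 reads, or 142, 166, 119 and 152 CPM. Its ratios were 0.22 (0.15 to 0.29) and 0.35 (0.28 to 0.42), with a difference of 0.13 (counting standard error 0.051). The same centring brought these ratios to 0.048 and 0.306, and the difference to 0.258. Without the drug both genes were lower with the TCOF1 guide, by -0.26 (-0.30 to -0.22) for S100A6 and -0.25 (-0.33 to -0.18) for S100A4. With the drug the 2 guides were closer, at -0.050 (-0.087 to -0.013) and -0.13 (-0.19 to -0.06). Centring by transcript length turned the former to 0.066 and brought the latter to -0.009. S100A4 overlaps a neighbouring annotation, since its reads counted by strand summed to 1.25 to 1.32 times the unstranded count, and its level is uncertain to that extent.

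S100A10 and S100P were lower with the TCOF1 guide whether or not the drug was given. So were S100A2, S100A4, S100A6 and S100A8, by the uncentred ratios given above. S100A10, also known as p11, joins annexin A2 at the plasma membrane and lies at chr1:151982915-151993859. It had 11996, 13399, 12991 and 10993 reads, or 587, 595, 499 and 503 CPM, so the levels fell into pairs by guide. The log2 ratio was -0.24 (-0.28 to -0.20) with the drug and -0.24 (-0.27 to -0.20) without it, while the drug itself gave 0.018 (-0.018 to 0.054) and 0.013 (-0.024 to 0.050), not distinguishable at this depth. Centring by transcript length took the guide ratio to -0.125 with the drug and -0.234 without it. It took the ratio of the drug to -0.156 in the control pool and -0.033 in the gRNA2 pool, so the pairing by guide depended on the processing. S100P, which binds ezrin and lies at chr4:6693878-6697170, had 9304, 11737, 10798 and 9042 reads, or 456, 521, 415 and 414 CPM. It was lower with the TCOF1 guide by -0.33 (-0.37 to -0.29) with the drug and by -0.14 (-0.18 to -0.10) without it. Centring by transcript length took these to -0.216 and -0.134. In S100P the drug gave 0.19 (0.15 to 0.23) in the control pool and -0.002 (-0.042 to 0.039) in the gRNA2 pool, which centring by transcript length brought to 0.020 and -0.048.

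S100A11 and S100A14 varied least. S100A11, which binds annexin A1 and lies at chr1:152032506-152037004, had 52072, 59840, 71976 and 58622 reads, or 2550, 2660, 2760 and 2680 CPM, a spread of 1.08-fold. S100A14, at chr1:153614255-153616325, had 5365, 6372, 7347 and 6431 reads, or 263, 283, 282 and 294 CPM, a spread of 1.12-fold. Their intervals are narrow because their counts are high, so most of these small ratios leave out 0 without being a call. S100A11 in gRNA2+dox against CTL+dox gave 0.015 (-0.002 to 0.031), which centring by transcript length took to 0.131. The same centring took its ratio in CTL+dox against CTL from 0.059 to -0.115.

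Over the 10 genes the median log2 ratio was 0.126 in gRNA2+dox against gRNA2, beside -0.018 over all genes, and -0.088 in gRNA2+dox against CTL+dox, beside 0.001. It was 0.208 in CTL+dox against CTL, beside 0.012, and -0.144 in gRNA2 against CTL, beside 0.026. With doxycycline 7 of the 10 genes had a ratio above 0 in both pools, a share not given here for all genes. In the control pool all 10 did, beside 52.3% of all genes, and in the gRNA2 pool 7 did, beside 45.8%. Centring by transcript length lowered the median in CTL+dox against CTL to 0.044, with 8 of the 10 above 0 and S100A10 and S100A11 at -0.156 and -0.115. It left the median in gRNA2+dox against gRNA2 at 0.094, with 6 of the 10 above 0, and turned that in gRNA2+dox against CTL+dox to 0.029. The difference between the pools was within 0.25 in size for 9 of the 10 genes, all but S100A2, and for 7 after that centring, which took S100A6 to 0.335 and S100A4 to 0.258. The share of all genes within 0.25 is not given here. Among the 7527 genes with at least 500 counts, 0.691% had a difference of -0.5 or lower and 0.651% one of 0.5 or higher. Small differences were thus common among abundant genes, and the count is not a trait of the family.

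Of 11 further S100 genes, 7 reached 10 counts in a library, and 0 of the 7 were called in any of the 4 comparisons. S100A16 was the highest of them, at 406 to 458 CPM per kilobase, and S100A13 had 103 to 121. S100A7A, S100A3, S100A5, S100A1 and S100A12 were below 20 CPM per kilobase in every library. The genes S100A1, S100A3, S100A13 and S100A7A had more reads when counted by strand than without strand, as genes that overlap another annotation do, and are uncertain.

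The S100 fused-type genes encode large proteins of the cornifying epidermis and hair that begin with an S100 domain. Of 7, 4 reached 10 counts, and 3 of these were called higher in gRNA2+dox against CTL+dox while 0 were called in gRNA2+dox against gRNA2, beside 2.59% and 1.70% of all genes called higher. TCHH, which encodes trichohyalin, had 2422, 2336, 3692 and 3532 reads and a log2 ratio of 0.64 (0.57 to 0.72) to CTL+dox. TCHHL1 gave 0.59 (0.12 to 1.07) and FLG, which encodes filaggrin, 0.68 (0.04 to 1.35), from at most 101 and 83 reads in any library. FLG was also called higher in gRNA2 against CTL, at 1.36 (0.72 to 2.09). In the same comparison TCHH was at 0.26 (0.18 to 0.33), short of a call. The ratios of this list were not centred by transcript length.

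Of 14 binding partners and receptors of S100 proteins, 13 reached 10 counts. In gRNA2+dox against gRNA2, 0 of the 13 were called higher and 1 lower, and in gRNA2+dox against CTL+dox 1 was called higher and 2 lower. Over all genes the shares were 1.70% higher and 2.39% lower in the former and 2.59% and 4.18% in the latter. MCAM, an adhesion molecule that can bind S100A8 and S100A9, was lower in both, with 318, 326, 328 and 166 reads and log2 ratios of -0.73 (-1.01 to -0.45) and -0.93 (-1.21 to -0.66). ANXA6, an annexin, was lower against CTL+dox, at -0.63 (-0.76 to -0.51), and AHNAK, a large scaffold protein that S100A10 binds, was higher, at 0.60 (0.57 to 0.63). Without the drug, in gRNA2 against CTL, MCAM was at -0.306 (-0.533 to -0.079), ANXA6 at -0.25 (-0.37 to -0.12) and AHNAK at 0.28 (0.25 to 0.31). All were short of a call. The ratios of this list were not centred by transcript length. ANXA2, the partner of S100A10, had 2360, 2430, 2340 and 2340 CPM. Of the receptors in this list, AGER had at most 24 reads and TLR4 at most 3 in any library, while BSG, which can bind S100A9, had 8385, 9826, 10770 and 8825.

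The cornified envelope genes SPRR, LCE, IVL and LOR lie in the same complex on chromosome 1, and the list of them used here also holds the neighbouring peptidoglycan recognition genes PGLYRP3 and PGLYRP4. Of these 22, 16 reached 10 counts, PGLYRP3 and PGLYRP4 among them. In CTL+dox against CTL 1 was called higher, SPRR2F, which had at most 13 reads in any library, beside 1.45% of all genes. With the drug 14 of the 16 had a ratio above 0 in the control pool, with a median of 0.449, and 7 of the 16 in the gRNA2 pool, with a median of -0.048, beside 52.3% and 45.8% of all genes. Transcripts under 700 bases as a class had medians of 0.174 and 0.046 in these comparisons. This list was not centred by transcript length, so the part of length in its ratios was not tested. SPRR1B, the most abundant, had 13905, 19750, 22154 and 18117 reads, with log2 ratios of 0.365 (0.333 to 0.396) and -0.036 (-0.064 to -0.008). Its ratio in gRNA2 against CTL was 0.321. SPRR3, with 8618, 13110, 11305 and 8835 reads, had log2 ratios with the drug of 0.46 (0.42 to 0.50) and -0.10 (-0.14 to -0.06). In gRNA2+dox against CTL+dox 2 were called lower, LCE3E at -0.62 (-0.88 to -0.37) and SPRR2F, beside 4.18% of all genes, and in gRNA2+dox against gRNA2 1 was, beside 2.39%, again SPRR2F, whose 2 reads in gRNA2+dox make its size uncertain.

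Among 13 genes of inflamed squamous epithelium, 12 reached 10 counts and 2 were called higher in both comparisons of gRNA2+dox, beside 1.70% of all genes against gRNA2 and 2.59% against CTL+dox. These were SERPINB3 and SERPINB4, neighbouring protease inhibitors known as squamous cell carcinoma antigens, whose sequences are near copies. SERPINB4 had 1873, 2515, 3417 and 5794 reads and a log2 ratio of 1.02 (0.96 to 1.08) to gRNA2 and 1.25 (1.18 to 1.32) to CTL+dox. SERPINB3 had 4164, 5897, 7541 and 9702 reads and log2 ratios of 0.62 (0.57 to 0.66) and 0.76 (0.72 to 0.81). Both genes were already higher in gRNA2 against CTL, without the drug. SERPINB4 was at 0.516 (0.435 to 0.598) there and SERPINB3 at 0.506 (0.451 to 0.561), short of a call. In CTL+dox against CTL they were at 0.284 (0.197 to 0.371) and 0.36 (0.303 to 0.418), also short of a call. The keratins KRT17 and KRT6A, the most abundant of the list, had log2 ratios of 0.15 and 0.14 to gRNA2, short of a call. Over the 12 genes the direction was mixed, with 8 above 0 against gRNA2 and 6 against CTL+dox, where the median was 0.017. The secreted proteins SLPI, PI3 and LCN2, named after their values were seen, were among the lower ones, at -0.48, -0.37 and -0.32 against CTL+dox.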

How the data were processed

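Total RNA of MDA-MB-468 mammospheres was sequenced in 4 libraries, 1 per condition. By the study's methods reads were trimmed with fastp and aligned with STAR, and the authors deposited its raw gene counts without normalization. The labels give the build as hg38, and the annotation is not given in the sources used here. STAR counts reads that map to 1 place, so near-identical genes lose reads. Unstranded counts were used. They were scaled with TMM factors (1.02, 1.00, 0.990 and 0.985) from edgeR 4.0.16 in R 4.3.3, with a prior count of 0.5. For each pair of libraries, exact 95% Clopper-Pearson intervals were taken on the gene's reads (scipy 1.17.1). They cover counting error only, and no p-value is given. GFOLD was not run, and the bound was taken at the 1% or 99% quantile of the log2 ratio with Poisson error. The calls were tested on simulated data. Positions and promoter windows are those of RefSeq on GRCh38.p14. Transcript lengths, used for levels per kilobase and for centring, come from GENCODE 44 canonical transcripts matched by symbol, 90.2% of tested genes and all 10 members. Protein sequences were planned and were not analysed here. The members and lists were chosen with earlier results of these data known. Besides the members, genes named are TCOF1, S100 genes with 10 counts, up to 4 genes of each list with the most counts or calls in gRNA2+dox, and the 5 nearest profiles of the 2 most variable members. AGER, TLR4, BSG, CSTB and the markers, with their reads, were named after their values were seen. DESeq2 1.42.0 size factors, total counts, upper quartile factors, other filters, a prior count of 5, thinning to the smallest library and an added coefficient of variation of 0.1 were the alternatives.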

Additional observations from a re-analysis of the deposited data

Results flagged for a closer look

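In S100A2 the log2 ratio with doxycycline was -0.46 in the gRNA2 pool and 0.40 in the control pool, a difference of -0.865. In S100A11 the ratios were -0.042 and 0.059, a difference of -0.101. Both genes are listed because the ratio was below 0 in one pool and above 0 in the other, each beyond its counting interval. In S100P the ratios were -0.002, with an interval that holds 0, and 0.194, so it is not among them although the difference, -0.196, is larger than that of S100A11. With 1 library per condition the difference was not tested beyond counting error. That of S100A11 is small in size, and it turned to 0.027 when genes were centred by transcript length.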

How the results depend on the processing

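No paired analysis was possible because no condition had a replicate, so that no replicate numbers pair the libraries, and leaving out a replicate was not possible for the same reason. Of 400 values for single members under the alternatives, 341 stayed within the counting interval, and 5 changed sign although that interval left out 0. All 5 came from centring by transcript length, which was chosen after the data were seen, as were the TMM factors from filtered genes and the sum of the strand columns. Under it S100A6 was 0.066 and S100A9 0.078 in gRNA2+dox against CTL+dox, S100A11 was -0.115 in CTL+dox against CTL, and the differences between pools were 0.085 for S100A9 and 0.027 for S100A11. The number of members called became 0 in gRNA2+dox against gRNA2 and 0 in CTL+dox against CTL under the same centring, since S100A8 fell short of 1.5-fold. With the study's cutoffs in place of 1.5-fold, it was 0 in gRNA2+dox against gRNA2, 0 in CTL+dox against CTL and 0 in gRNA2 against CTL. The depth was ample for the members, with at least 367 reads each, and the lack of replicates limits what the ratios can show.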

Other observations

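S100A9 stood apart in the strand of its reads, a measure that the comparisons did not use. Of its reads counted by strand, 51.5%, 55.8%, 50.6% and 53.8% lay on the first strand in CTL, CTL+dox, gRNA2 and gRNA2+dox, a range of 5.16 percentage points. This was the widest range of 244 genes with at least 10000 reads in each library, which had a median range of 0.903, and the next, CSTB, had 3.74. The log2 ratio of S100A9 with doxycycline was 0.32 (0.30 to 0.35) on the first strand and 0.14 (0.11 to 0.16) on the second in the gRNA2 pool, and 0.39 (0.37 to 0.42) and 0.14 (0.12 to 0.17) in the control pool. The cause was not tested.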
